A study of Acipenser dabryanus with 12 samples.

Results

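Brain RNA of young Yangtze sturgeon (Acipenser dabryanus), a river fish of China, was compared between fish sampled 1 h after the daily meal and fish sampled 1 h before it. Of the 12 libraries of the series, the 4 from brain were used, and all genes of the de novo assembly whose values averaged 5 TPM or more over these 4 libraries were described. TPM is a transcript abundance per unit of length that is scaled to the same total in every library. This choice kept 21514 of 280408 genes and did not use the difference between feeding states. The values just inside the limit were common: 3203 genes had a mean of 5 to 6 TPM, and 4545 genes left out had a mean of 4 to 5 TPM.

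The 4 libraries were brain with soybean oil after the meal, brain with soybean oil before it, brain with fish oil after the meal and brain with fish oil before it, with 1 library each. All fish were about 6 months old and had received their diet once daily for 7 weeks. Soybean oil is a plant oil, and fish oil carries long-chain omega-3 fatty acids. Each diet was given in its own pond and the 2 feeding states were sampled at different hours of the same afternoon schedule, so diet and pond, and feeding state and hour, cannot be told apart. From each pond 6 fish were taken after the meal and 6 others before it. Whether a library stands for 1 fish or a pool is not stated in the labels, nor which parts of the brain were taken. The protocol text names liver as the dissected organ, although the samples are labelled brain. The p-values below therefore measure only the spread between these libraries, which may be technical.

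In vertebrates, food intake is controlled mainly by the hypothalamus and the hindbrain. Before a meal, neurons that make neuropeptide Y and agouti-related peptide promote feeding. After it, gut hormones, nutrients and vagal signals act on neurons that make pro-opiomelanocortin and other satiety peptides. Some fish use related peptides, and neurons also switch on immediate early genes within an hour of stimulation. None of these genes could be looked up here, because the files pair the assembly's IDs with no gene name or sequence. The genes are therefore described by level, by direction and by the tissue in which they were highest, and at most 2 higher and 2 lower IDs are printed for each comparison. For the same reason the tissue label could not be checked on defining markers. Over the 21514 genes, the brain libraries correlated with each other at a Pearson r of 0.727 to 0.831 on log2(TPM + 1), and with liver libraries at 0.411 to 0.613 and spleen libraries at 0.439 to 0.622. These genes were kept for their level in the brain libraries, which favours a higher r among them. The correlations are therefore no check of the tissue label.

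The 4 libraries differed in how evenly their RNA was spread over genes. With soybean oil, 66426 genes reached 1 TPM after the meal and 52435 before it. With fish oil, 66103 genes reached 1 TPM after the meal and 78832 before it. Genes of at least 1000 TPM took 33.8% of all TPM in the soybean oil library after the meal and 44.2% in the one before it, against 30.6% after and 30.2% before the meal on fish oil. The median gene stood at 10.8 TPM after and 8.61 TPM before the meal on soybean oil, and at 11.6 TPM after and 10.9 TPM before it on fish oil. The soybean oil library before the meal thus held the fewest genes and the largest share in its top genes, and the fish oil library before the meal the most genes. The depth of sequencing is not recorded in TPM, and counting errors are therefore not given.

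The comparison asked which brain genes differ between the fed and the unfed state. More genes were higher than lower after the meal in both diets, by small amounts for most. In the soybean oil pair, 66.4% of the 21514 genes were higher after the meal; the median log2 fold was 0.28, and the quartiles over genes were -0.17 and 0.71. In the fish oil pair, 57.2% were higher, with a median log2 fold of 0.16 and quartiles of -0.48 and 0.71. Folds are differences of log2(TPM + 1), which understates the change of low genes. This lean rested on scaling: after quantile normalization, which gives all 4 libraries the same distribution, 49.9% were higher with soybean oil and 53.7% with fish oil, with medians of 0 and 0.088. Levels in bulk tissue cannot tell fewer cells of a type from less RNA per cell.

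At least 2-fold differences were frequent within each pair, where 1 library stands against 1 library and no test is possible. With soybean oil, 2955 genes were at least 2-fold higher after the meal (13.7% of the genes) and 1068 at least 2-fold lower (4.96%). With fish oil, 3116 were higher (14.5%) and 2779 lower (12.9%). After quantile normalization these counts were 1640 higher and 1667 lower with soybean oil, and 2886 higher and 3109 lower with fish oil. Together, 18.7% of the genes differed at least 2-fold between feeding states with soybean oil and 27.4% with fish oil.

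Libraries of the same feeding state but different diet can be set beside these counts as a description. They also differ in pond and are not replicates, so they do not give the spread within a group. Between the brains of the 2 diets after the meal, 11.2% of the genes differed at least 2-fold, and between those of the 2 diets before the meal 21.1%. The SD of the log2 differences over genes was 0.89 for the soybean oil meal pair and 1.03 for the fish oil meal pair. It was 0.81 between diets after the meal and 0.92 between diets before it. The difference between feeding states was thus larger than both differences between diets in the fish oil pair, and it lay between them in the soybean oil pair. These differences reuse the same 4 libraries. The fish oil library before the meal is part of both the larger meal difference and the larger diet difference. The 2 brains after the meal were the most alike of the 6 pairs of brain libraries (r = 0.831), and the fish oil brains after and before the meal the least alike (r = 0.727).

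The 2 diets agreed on few of the large differences. At least 2-fold higher after the meal in both pairs were 589 genes (2.74%), and at least 2-fold lower in both were 305 (1.42%). A further 685 genes (3.18%) differed at least 2-fold in both pairs but in opposite directions, of which 507 were higher with soybean oil and lower with fish oil, and 178 lower with soybean oil and higher with fish oil. The 589 genes made up 19.9% of the soybean oil list and 18.9% of the fish oil list of higher genes. The 305 genes made up 28.6% of the soybean oil list and 11.0% of the fish oil list of lower genes. Of all 21514 genes, 14.5% were at least 2-fold higher with fish oil and 13.7% with soybean oil. At least 2-fold lower were 12.9% with fish oil and 4.96% with soybean oil. Across the 21514 genes, the folds of the 2 pairs, which share no library, had a Pearson r of 0.069 and a Spearman rho of 0.13. Genes are not independent replicates, so these carry no p.

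Which side held more genes changed with scaling. After quantile normalization 331 genes were higher in both pairs and 479 lower, against 589 and 305 on TPM as deposited. Of the 589 higher genes 317 were also in the list of 331, and of the 305 lower genes 296 were also in the list of 479. The 589 higher genes summed to 12959 TPM after the meal with soybean oil and 4300 TPM before it, and to 15067 TPM after and 4826 TPM before the meal on fish oil. The 305 lower genes summed to 6133 TPM after and 19796 TPM before the meal on soybean oil, and to 5572 TPM after and 20059 TPM before it on fish oil. These sums describe genes that were chosen for this direction.

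**Figure D1:**
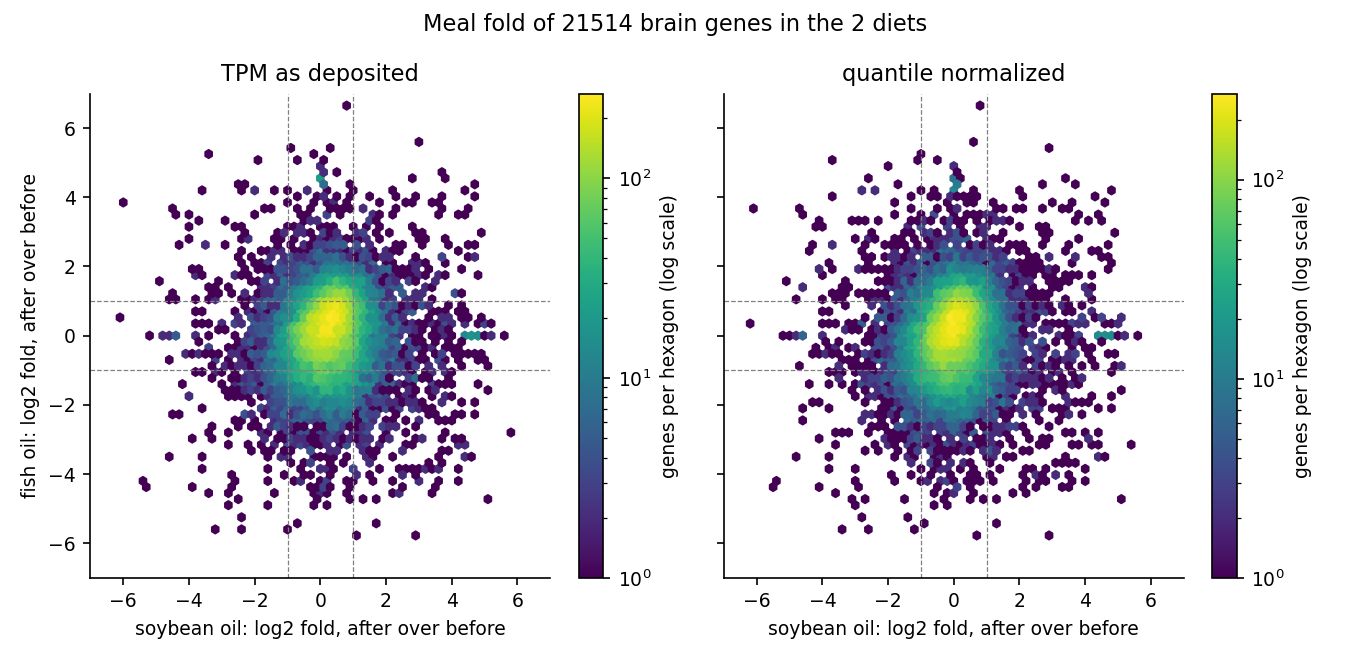
Each hexagon counts brain genes by their log2 fold after over before the meal in the soybean oil pair (x axis) and the fish oil pair (y axis), on TPM as deposited (left) and after quantile normalization (right), with dashed lines at 2-fold. The cloud is nearly round (Pearson r = 0.069 as deposited and 0.080 quantile normalized), and its centre lies above 0 on both axes only on the left.

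Counting only whether the libraries overlap, both values after the meal lay above both values before it in 7391 genes (34.4%), and below both in 2994 genes (13.9%). After quantile normalization the counts were 5390 and 4661. With 2 libraries against 2 and no difference at all, such a separation one way or the other has a chance of 0.3333 (exact permutation test, two-sided). For a single gene it is therefore weak evidence. No gene passed the test on the 4 libraries together: limma with diet as a term called 0 of 21514 genes higher and 0 lower at a Benjamini-Hochberg threshold of 0.05, with a lowest adjusted p of 0.574. The lowest adjusted p moved with the setting: it was 0.0523 over the 5140 genes of at least 20 TPM, 0.0845 in a model of all 12 libraries, 0.232 with median-ratio scaling and 0.294 after quantile normalization. At an unadjusted p under 0.05, 1289 genes were higher and 540 lower on TPM as deposited. This lean turned with scaling: 682 were higher and 907 lower after quantile normalization, and 554 and 1009 with median-ratio scaling. With no difference at all, a share of 0.05 of the genes would fall under that level. On TPM as deposited, a fit of the 4 libraries without diet as a term gave 1875 higher and 679 lower at that level, with a lowest adjusted p of 0.407. With each library left out in turn, the median log2 fold of that model was 0.33 without the fish oil library before the meal and 0.16 without the one after it. It was 0.11 without the soybean oil library before the meal and 0.25 without the one after it, against 0.21 with all 4. The test has 1 residual degree of freedom, which is the difference between the folds of the diets, so a gene that answers the meal differently in the 2 diets gets a large error, and 0 calls do not show that the meal had no effect. Without the limit of 5 TPM, 204379 genes were tested and 112 were called higher and 72 lower, 132 of these 184 averaging 5 TPM or more. Over that wider set the prior degrees of freedom that limma adds to each gene had a median of 49.7, against 5.16 with the limit.

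The direction of the folds went with abundance in the soybean oil pair. The 113 genes from 1000 TPM upwards had a median log2 fold of -0.45 with soybean oil, and 30.1% of them were higher after the meal. The 10265 genes of 5 to 10 TPM had a median of 0.33 in the same pair, and 69.6% were higher. With fish oil the order was the other way, with a median of 0.35 for the 113 most abundant genes, of which 77.9% were higher, and 0.062 for the 10265 least abundant. Quantile normalization brought these medians to -0.13 and -0.019 with soybean oil and to 0.13 and 0.055 with fish oil. The abundant genes of the soybean oil library before the meal took the larger share of TPM reported above.

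**Figure D2:**
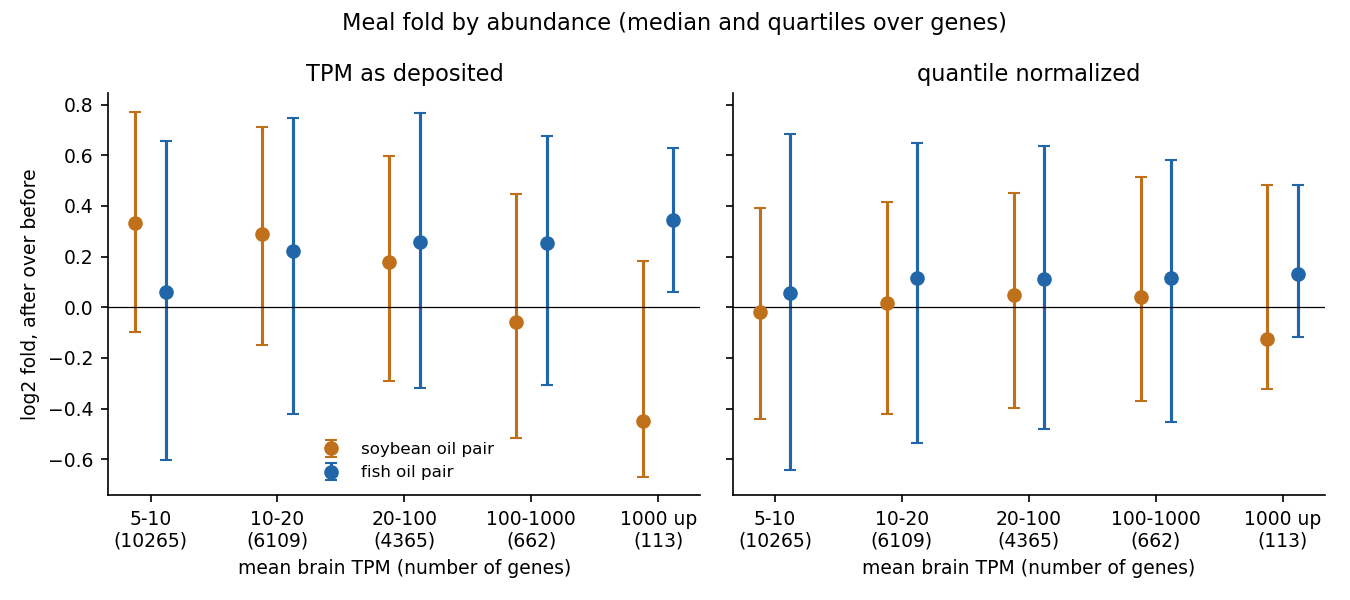
Points are medians and bars the quartiles over genes of the log2 fold after over before the meal (y axis) in classes of mean brain TPM (x axis), on TPM as deposited (left) and quantile normalized (right). With soybean oil the medians run downwards as abundance grows, 0.33 in the lowest and -0.45 in the highest class, and after quantile normalization all 10 medians lie between -0.13 and 0.13.

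The folds of the 2 diets were more strongly correlated among abundant genes. Pearson's r between the folds of the pairs was 0.034 for genes of 5 to 10 TPM, 0.10 for 10 to 20 TPM, 0.16 for 20 to 100 TPM, 0.22 for 100 to 1000 TPM and 0.28 for the 113 genes above that. The order was the same after quantile normalization, at 0.039, 0.11, 0.17, 0.23 and 0.32. Of the 775 genes averaging 100 TPM or more, 240 were higher after the meal in both diets (31.0%) and 178 lower in both (23.0%), against 41.0% and 17.2% of all genes. Past 2-fold the lower side held more of these abundant genes: 5 were at least 2-fold higher in both pairs (0.645%) and 20 at least 2-fold lower (2.58%), where all 21514 genes gave 2.74% and 1.42%. After quantile normalization 8 were higher (1.03%) and 14 lower (1.81%), against 1.54% and 2.23% of all genes. Both shares of the abundant genes then lay below those of all genes.

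The 20 abundant genes that were lower after the meal include some of the larger single differences of the brain. The second most abundant of them stood at 334 TPM after and 1727 TPM before the meal on soybean oil, and at 538 TPM after and 2673 TPM before it on fish oil. It was thus about 5-fold lower after the meal in both diets, with no overlap between the states. The next but one in rank stood at 355 TPM after and 1072 TPM before the meal on soybean oil, and at 57.5 TPM after and 1734 TPM before it on fish oil, a much larger difference with fish oil. These genes are singled out after their values were seen. Of the 20, 2 were at least 8-fold higher in brain than in liver and spleen. A higher mean in liver or spleen than in brain was found for 7, 6 of them in spleen and 4 in liver, some in both. Of the 5 that were higher after the meal, 3 were at least 8-fold higher in brain than in the other tissues, and none had a higher mean in liver or spleen. Among all 775 genes of at least 100 TPM, 159 were at least 8-fold higher in brain. How many of the 775 had a higher mean in liver or spleen is not given here, and both lists are short.

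**Figure D3:**
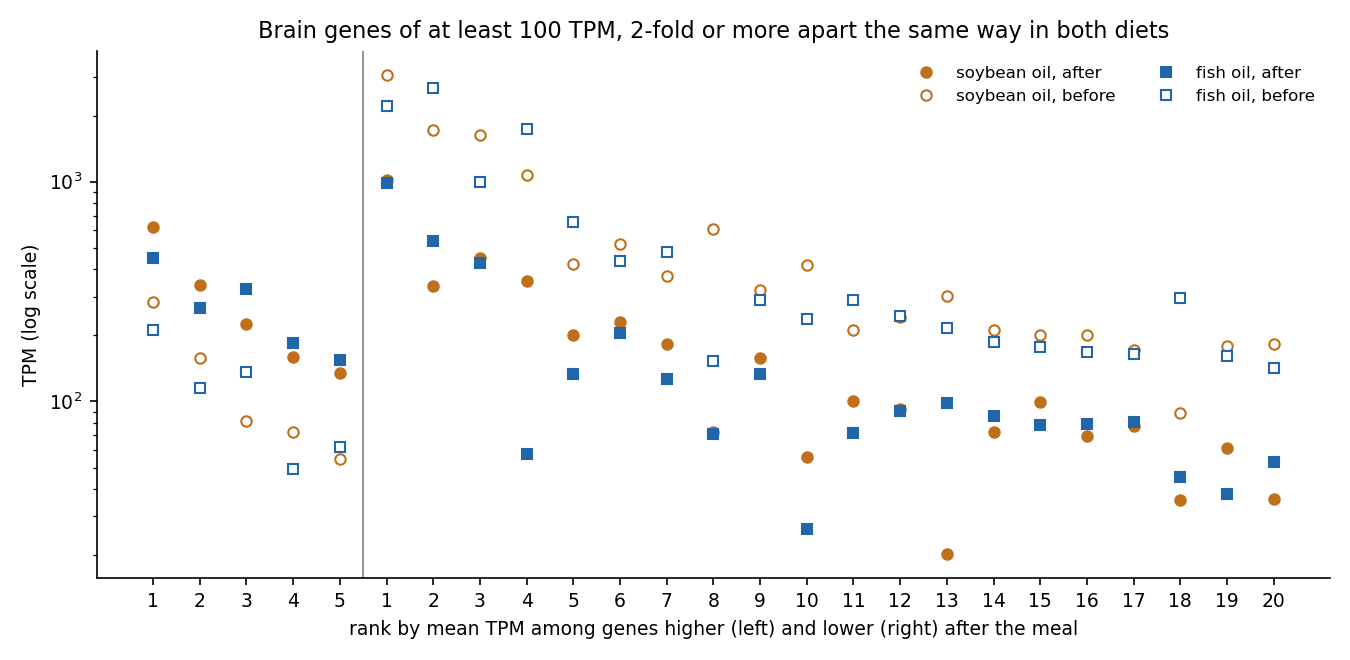
TPM on a log scale (y axis) of the 5 higher and 20 lower genes averaging 100 TPM or more with at least 2-fold differences in both diets (x axis, rank by mean), 1 library per point, filled after and open before the meal. By this choice the filled and open points of a diet are at least 2-fold apart on the log2(TPM + 1) scale; the 5 higher genes lie at 135 to 621 TPM after and 49.2 to 282 TPM before the meal.

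On TPM as deposited, the most abundant gene of the brain libraries was lower after the meal in both diets without reaching 2-fold in both. It stood at 21732 TPM after and 33985 TPM before the meal on soybean oil, and at 13009 TPM after and 46169 TPM before it on fish oil. Both brains after the meal were below both before it. After quantile normalization its log2 fold was 0 with soybean oil and -1.05 with fish oil. It was the highest gene of both soybean oil libraries, and quantile normalization gives the highest gene of each library the same value. The 0 was thus fixed by rank and does not show an unchanged level. The third most abundant gene had the same pattern on TPM as deposited. It had 8669 TPM after and 14413 TPM before the meal on soybean oil, and 4384 TPM after and 21921 TPM before it on fish oil. Its quantile-normalized log2 folds were -0.96 with soybean oil and -2.04 with fish oil. Of the next 7 genes in rank, 4 were higher after the meal in both diets on TPM as deposited and 3 after quantile normalization.

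TRINITY_DN134469_c5_g1 had the largest smaller fold of the 2 pairs among lower genes of at least 100 TPM. It stood at 55.7 TPM after and 417 TPM before the meal on soybean oil, and at 26.3 TPM after and 238 TPM before it on fish oil. Both brains after the meal were far below both before it, at ratios of 0.134 and 0.111, as the rule for picking it favours. The limma log2 fold was -3.01 ± 0.37 (SE, n = 2 libraries per state), with an unadjusted p of 0.000162 and an adjusted p of 0.574. The other tissues held less of this gene: liver libraries held 5.64 to 16.1 TPM and spleen libraries 1.01 to 3.41 TPM. In spleen it was also lower after the meal in both diets, at 1.21 TPM after and 3.41 TPM before it on soybean oil and 1.01 TPM after and 3.31 TPM before it on fish oil. In liver it was lower after the meal on soybean oil, at 12.2 TPM after and 16.1 TPM before it. On fish oil it was higher there, at 7.06 TPM after and 5.64 TPM before the meal.

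TRINITY_DN120179_c5_g1 was the matching gene on the higher side. It stood at 135 TPM after and 54.6 TPM before the meal on soybean oil, and at 155 TPM after and 62.2 TPM before it on fish oil. The 2 diets gave nearly the same ratio, 2.48 with soybean oil and 2.49 with fish oil, and the states did not overlap. The rule favours genes with large folds the same way in both pairs, so this likeness came in part from the choice. The limma log2 fold was 1.30 ± 0.36 (SE, n = 2 libraries per state; adjusted p = 0.574). Liver libraries held 0.68 to 1.35 TPM and spleen libraries 8.68 to 15.1 TPM of it.

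The genes chosen by the same rule from 5 TPM upwards were listed at 0 in one state. TRINITY_DN131670_c4_g1 stood at 25.5 TPM with soybean oil and 18.6 TPM with fish oil after the meal and was listed at 0 in both brains before it. It was also listed at 0 in all 4 livers and in both fish oil spleens. TRINITY_DN134648_c1_g1 was listed at 0 in both brains after the meal and stood at 39.0 TPM with soybean oil and 19.5 TPM with fish oil before it. It was listed at 0 in all 8 liver and spleen libraries. In limma the adjusted p was 0.574 for either gene, and no fold is given against a value listed at 0. Of the 21514 genes, 22 were above 0 in both brains after the meal but at 0 in both before it. For 13 it was the other way round. A gene at 0 in both brains of a state passes the limit of 5 TPM only through the other state, so these counts depend on that limit. Trinity can split a gene over several IDs that divide its reads. IDs were grouped by their DN number alone, called a component here, whatever their c and g numbers. By this wide grouping, 42.4% of the 21514 genes shared a component with another of them.

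Other genes of those kept were above 0 in 1 brain library alone. Above 0 only in the soybean oil library after the meal were 50 genes, only in the one before it 9, only in the fish oil library after the meal 34 and only in the one before it 5. These genes have a level above 0 in 1 diet and are listed at 0 in both brains of the other. Each passes the limit of 5 TPM only through its 1 library, so these counts depend on that limit as well. The liver and spleen libraries were not used for these counts.

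**Figure D4:**
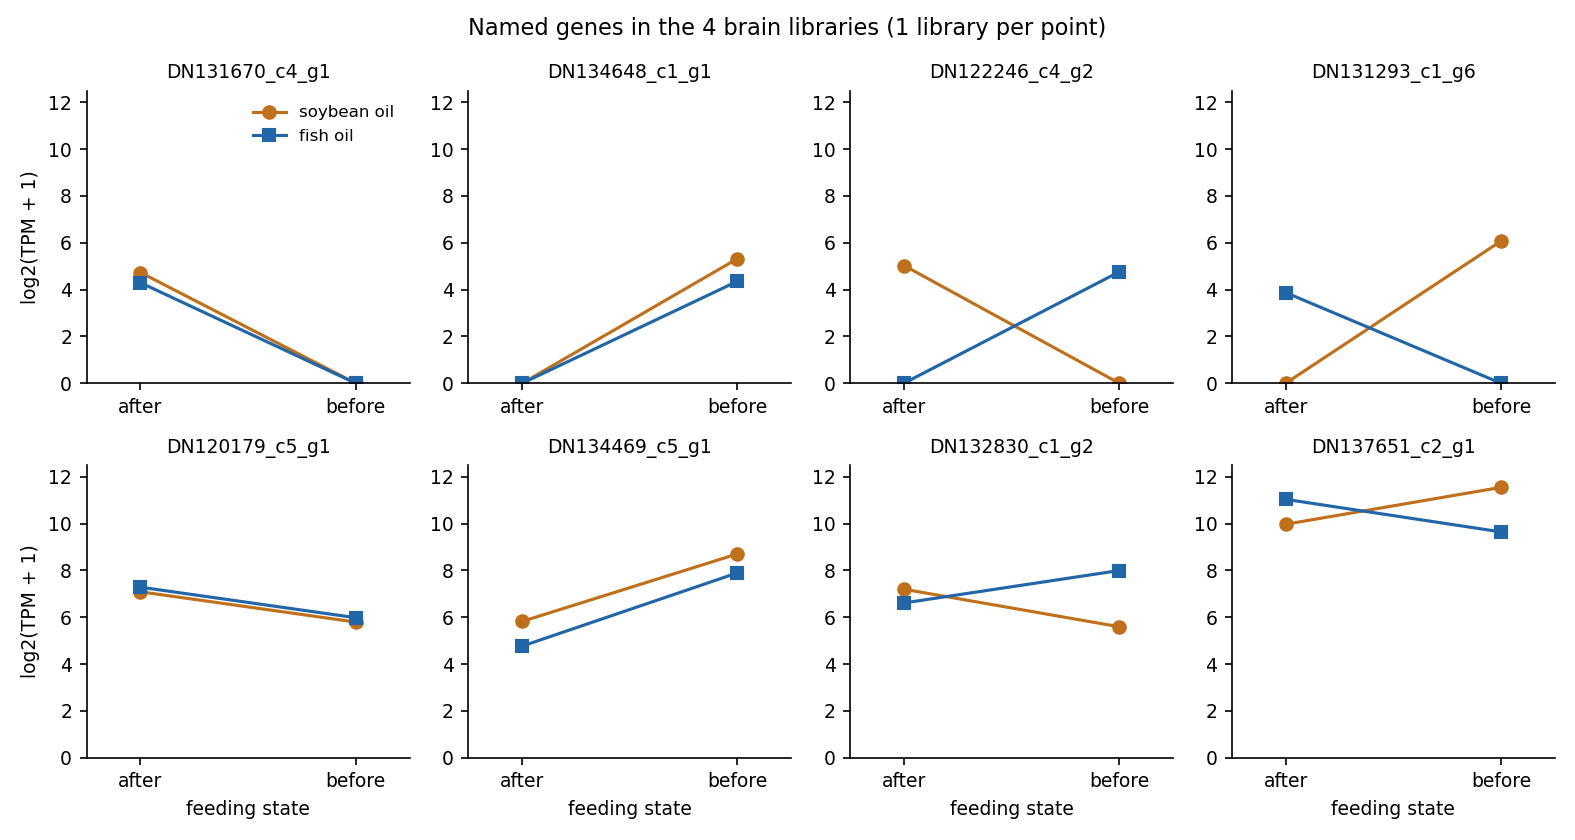
Each panel gives 1 gene as log2(TPM + 1) (y axis) after and before the meal (x axis) in the soybean oil (circles) and fish oil (squares) brains, 1 library per point, from the rule for genes of at least 5 TPM (top) and at least 100 TPM (bottom). From left to right, the columns hold genes higher in both diets, lower in both diets, higher with soybean oil alone and higher with fish oil alone; the lines of the first 2 columns run together and those of the last 2 cross.

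Other genes went opposite ways in the 2 diets. TRINITY_DN132830_c1_g2 stood at 146 TPM after and 47.4 TPM before the meal on soybean oil, and at 96.8 TPM after and 255 TPM before it on fish oil. Its ratio was 3.08 with soybean oil and 0.380 with fish oil, and the states overlapped. In spleen it had the same crossed pattern, at 324 TPM after and 88.9 TPM before the meal on soybean oil and 43.5 TPM after and 322 TPM before it on fish oil. In liver it was higher after the meal in both diets, at 290 TPM after and 109 TPM before it on soybean oil and 397 TPM after and 281 TPM before it on fish oil.

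TRINITY_DN137651_c2_g1 showed the reverse in brain, with 1004 TPM after and 2994 TPM before the meal on soybean oil, and 2100 TPM after and 801 TPM before it on fish oil. Spleen held 16638 to 24017 TPM of this gene, so that brain is not its main tissue. TRINITY_DN122246_c4_g2 was at 31.6 TPM in the soybean oil brain after the meal and 26.0 TPM in the fish oil brain before it, and listed at 0 in the other two. TRINITY_DN131293_c1_g6 was at 13.6 TPM in the fish oil brain after the meal and 66.2 TPM in the soybean oil brain before it, and listed at 0 in the other two. Whether the meal fold differs between diets could not be tested, since each diet and state has 1 library.

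Genes typical of brain were mostly higher after the meal in the soybean oil pair, while in the fish oil pair their share was near that of all genes. Of the 3214 genes with at least 8-fold higher mean TPM in brain than in liver and spleen, 82.9% were higher after the meal with soybean oil and 59.2% with fish oil, against 66.4% and 57.2% of all genes. Their median log2 folds were 0.58 with soybean oil and 0.25 with fish oil, against 0.28 and 0.16. At least 2-fold higher in both diets were 148 of them (4.61%, against 2.74% of all genes), and at least 2-fold lower 23 (0.716%, against 1.42%). Opposite 2-fold differences were also more frequent among them (5.32%, against 3.18% of all genes). Of these, 146 were higher with soybean oil and lower with fish oil, and 25 the other way. Pearson's r between the folds of the 2 pairs was -0.022 for the 3214 genes, against 0.069 for all genes. After quantile normalization the medians of the brain-typical genes were 0.31 with soybean oil and 0.16 with fish oil, against 0 and 0.088 for all genes. The shares higher after the meal were then 70.3% and 55.7%, against 49.9% and 53.7% of all genes. Among genes of at least 100 TPM, the 159 brain-typical ones had a median of 0.50 with soybean oil and 0.38 with fish oil. The 602 genes of that abundance without a tissue pattern had a median of -0.25 with soybean oil and 0.25 with fish oil. All brain-typical genes together took 11.9% of TPM after and 9.75% before the meal on soybean oil, and 12.2% after and 10.6% before it on fish oil.

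Genes typical of liver and spleen were followed in the same brain libraries. The 147 genes with at least 8-fold higher mean TPM in liver summed to 2663 TPM after and 3291 TPM before the meal on soybean oil, and to 2377 TPM after and 3349 TPM before it on fish oil. Their median log2 folds were -0.089 with soybean oil and -0.52 with fish oil, and 42.2% were lower after the meal in both diets, against 17.2% of all genes. The 106 genes with at least 8-fold higher mean TPM in spleen summed to 11635 TPM after and 12584 TPM before the meal on soybean oil, and to 10890 TPM after and 7043 TPM before it on fish oil. Their medians were -0.39 with soybean oil and 0.42 with fish oil. The sums of the liver-typical genes were lower after the meal in both diets, while those of the spleen-typical genes went opposite ways. The spleen-typical genes include TRINITY_DN137651_c2_g1, picked above for its opposite folds. It stood at 1004 TPM after and 2994 TPM before the meal on soybean oil. On fish oil it stood at 2100 TPM after and 801 TPM before it. On soybean oil its fall was larger than that of the whole sum, so the direction of that sum rests on this gene. Of the liver-typical and spleen-typical genes, 2 had both patterns. The part of liver-typical and spleen-typical genes in the other differences was not tested.

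**Figure D5:**
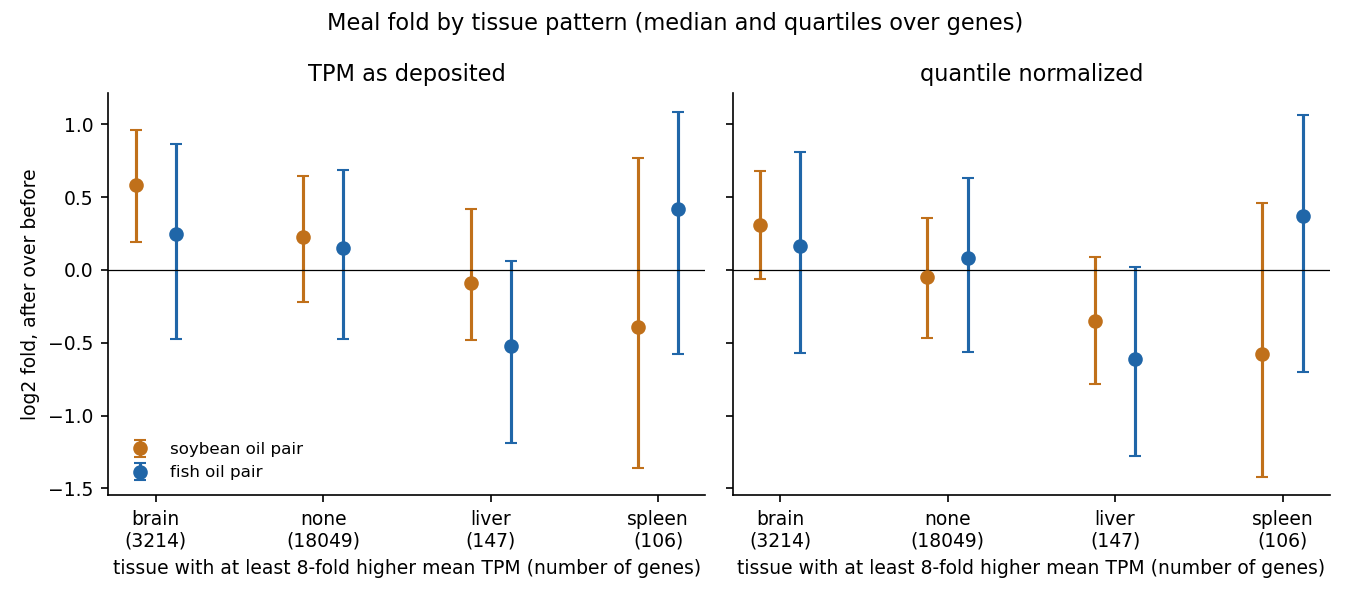
Points are medians and bars the quartiles over genes of the log2 fold after over before the meal in brain (y axis), for genes with at least 8-fold higher mean TPM in brain, in none, in liver or in spleen (x axis), on TPM as deposited (left) and quantile normalized (right). The medians of brain-typical genes lie above 0 in both diets under either scaling, those of liver-typical genes below 0, and those of spleen-typical genes below 0 with soybean oil and above 0 with fish oil.

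The IDs of 1 component, which share a DN number but may differ in their c number, moved together only loosely. In the 4046 components with 2 or more of the genes, the folds of the 2 most abundant IDs had the same sign in 64.3% of cases with soybean oil and 55.2% with fish oil, with a Pearson r of 0.17 and 0.18. With soybean oil 66.4% of all folds were above 0, which by itself raises the share of like signs. After quantile normalization the shares were 57.6% with soybean oil and 55.0% with fish oil. Counting 1 ID per component left 16435 genes, of which 439 were at least 2-fold higher and 220 at least 2-fold lower after the meal in both diets.

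For the same 21514 genes, the median log2 fold after over before the meal in liver was 0.049 with soybean oil and 0 with fish oil, and in spleen 0.033 with soybean oil and -0.26 with fish oil. In liver, 300 were at least 2-fold higher and 156 at least 2-fold lower after the meal in both diets, and in spleen 166 and 166. The genes were chosen for their level in brain. A test of the difference in meal fold, in limma on all 12 libraries, called 0 of the 21514 genes between brain and liver and 0 between brain and spleen. At an unadjusted p under 0.05 there were 1454 and 1316, and the lowest adjusted p were 0.455 and 0.4. After quantile normalization 1616 and 901 genes were under that unadjusted level. For TRINITY_DN134469_c5_g1 the log2 meal fold of brain minus that of liver was -2.96 ± 0.40 (SE; limma adjusted p = 0.705).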

How the data were processed

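Per the labels' protocols, TRIzol-extracted RNA was made into TruSeq libraries, sequenced from both ends (Illumina HiSeq), and the cleaned reads were joined into transcripts by Trinity. RNA of 3 samples per group and time was used, per the labels' protocols. The quantification tool is not given in the sources used here. Each deposited file holds the TPM of every Trinity gene in 1 library, rounded to 2 decimals, and its values sum to nearly 1000000. The files hold no counts, so depth is unknown and no count-based test was run.

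Groups came from the labels. Genes averaging 5 TPM or more over the 4 brain libraries were analysed on log2(TPM + 1). limma 3.58.1 (trend, robust) in R 4.3.3 was fitted to the brain libraries with feeding state and diet as terms, with Benjamini-Hochberg adjustment over all 21514 genes, and to all 12 libraries with tissue by diet and tissue by feeding state for differences between tissues. The code of both fits was run on simulated data with the same spread for every gene and no difference between diets. That setting differs from these data, so it does not show how the fits perform on them. Per pair, at least 2-fold means a log2 difference of at least 1. Quantile normalization ran over all genes of the 4 brain libraries. Named IDs are those with the largest smaller fold of the 2 pairs, with one sign under both scalings, from 5 TPM and from 100 TPM upwards, for genes that agree and genes that go opposite ways. The members, classes and lists were chosen with earlier results of these data known. Alternatives were another pseudocount, other filters, other models, each library left out, and, added after seeing the data, median-ratio scaling, genes above 0 in all 4 libraries and 1 ID per component. Python 3.11.15 with pandas 2.3.3, numpy 2.4.6, scipy 1.17.1 and matplotlib 3.10.9 was used for summaries and plots.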

Additional observations from a re-analysis of the deposited data

Results flagged for a closer look

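The soybean oil library before the meal stood apart in 1 measure of 25 examined over the 4 brain libraries with Dixon's ratio, which chance flags in about 1 of 20. Of the 21514 genes, 345 were listed at 0 in it, against 189 in the soybean oil library after the meal, 202 in the fish oil library after the meal and 192 in the fish oil library before it (Dixon's ratio 0.917).

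Some meal differences pointed opposite ways in the 2 diets, and none of these differences between diets was tested, as each diet and state has 1 library. TRINITY_DN132830_c1_g2 had a log2 fold of 1.60 with soybean oil and -1.39 with fish oil, and TRINITY_DN137651_c2_g1 one of -1.58 with soybean oil and 1.39 with fish oil. TRINITY_DN122246_c4_g2 was above 0 only in the soybean oil brain after the meal, at 31.6 TPM, and in the fish oil brain before it, at 26.0 TPM. TRINITY_DN131293_c1_g6 was above 0 only in the fish oil brain after the meal, at 13.6 TPM, and in the soybean oil brain before it, at 66.2 TPM. All 4 were picked for opposite folds. The 662 genes with a mean of 100 to 1000 TPM had median log2 folds of -0.059 with soybean oil and 0.25 with fish oil, and the 113 genes from 1000 TPM upwards -0.45 with soybean oil and 0.35 with fish oil. The 106 spleen-typical genes had medians of -0.39 with soybean oil and 0.42 with fish oil.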

How the results depend on the processing

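No gene was called under any alternative that was run except the one without a filter, which called 112 higher and 72 lower. Under median-ratio scaling, the soybean oil pair had 1825 genes at least 2-fold higher and 1827 lower, and both pairs together 321 higher and 536 lower, with medians of 0.013 with soybean oil and 0.0004 with fish oil. Under quantile normalization these were 1640 and 1667 in the soybean oil pair, and 331 and 479 in both pairs, with a soybean oil median of 0 and a soybean oil median of 0.31 for brain-typical genes. From 20 TPM upwards, 469 were higher and 305 lower with soybean oil, 738 and 511 with fish oil, 102 and 98 in both, and 95 opposite, with medians of 0.15 with soybean oil and 0.26 with fish oil over 5140 genes. Without a filter, 21338 were higher and 9563 lower with soybean oil, 18530 and 30197 with fish oil, 2157 and 1397 in both, and 3642 opposite, with medians of 0 with soybean oil and -0.039 with fish oil over 204379 genes. The counts from 20 TPM and without a filter run over other numbers of genes. Counts with a pseudocount of 0.1, with genes above 0 in all 4 libraries and with 1 ID per component stayed within 1.5 times. Leaving out each brain library in turn called 0 genes each way, in a limma fit without diet as a term in which the lone library of a state is assumed to vary like the pair of the other. The counts at an unadjusted p under 0.05 in these fits ranged from 267 to 2709 higher and from 278 to 1640 lower. The same model on all 4 libraries gave 1875 higher and 679 lower. Both lowest counts came without the fish oil library after the meal; 2709 higher came without the fish oil library before it, and 1640 lower without the soybean oil library before it. Over the settings that called no gene, the lowest adjusted p ran from 0.0523, from 20 TPM upwards, to 0.983, without the fish oil library after the meal.

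The 4 named genes that agreed in both diets kept their direction in the 11 settings in which they were followed. The fits without a filter, from 20 TPM upwards, on genes above 0 in all 4 libraries and with 1 ID per component were not among these 11 settings. The 4 genes were picked for the same sign in both pairs under both scalings, so a kept direction was largely fixed by that choice. Leaving out diet as a term, leaving out the trend and using all 12 libraries gave the same log2 fold as the main fit. TRINITY_DN134469_c5_g1 ranged in log2 fold from -3.53 to -2.48 (limma adjusted p of 0.152 to 0.983) and TRINITY_DN120179_c5_g1 from 1.07 to 1.40 (limma adjusted p of 0.285 to 0.983). Pair counts were not recomputed with a library left out, since 1 pair would remain. The fit with diet as a term pairs the libraries by diet, and leaving the term out called 0 genes as well.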
